A study of Bos taurus with 40 samples.

Results

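The 30 genes described here encode enzymes and proteins that make, sense, move and export cholesterol, and they were followed in the endometrium (the lining of the uterus) of cattle. They were taken by name from a list of members, and all 30 were found among the 32671 named genes of the count table. All 30 also passed the filter on low counts and entered every test. They were grouped by role into 7 enzymes of early synthesis up to farnesyl diphosphate, 11 enzymes of squalene and sterol synthesis, 5 regulators, 3 proteins of intracellular transport and 4 proteins of export, uptake and receptor turnover.

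Endometrium from both uterine horns of 20 synchronised heifers was sequenced, 5 animals at each of the days 5, 7, 13 and 16, for 40 libraries in 8 groups of 5. Ipsilateral means the horn next to the ovary that carries the corpus luteum, the gland that makes progesterone after ovulation, and contralateral means the opposite horn. The series asked whether the endometrium of the horns differs and how that bears on growth of the conceptus. No agent, allele or diet separated the groups, and the sources used here give neither breed nor age. Time is a pregnancy day in the labels but a day post-estrus in the design text, and the presence of embryos is not stated. Each library came from homogenised tissue, so a lower level can mean fewer cells of a type or less RNA per cell, and these cannot be told apart.

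Cholesterol is built from acetyl-CoA through mevalonate, isoprenoid units and squalene, and the genes of these steps are switched on together by SREBP-2, the product of SREBF2, when sterol in the endoplasmic reticulum is low. SCAP escorts SREBP proteins to the Golgi for cleavage, and the INSIG proteins hold SCAP back when sterol is plentiful. STARD4, NPC1 and NPC2 move sterol inside the cell, ABCA1 and ABCG1 export it, and SCARB1 exchanges it with high-density lipoprotein. In the ruminant endometrium of the luteal phase, epithelial cells are known to store lipid.

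Total counts per library ranged from 27.03 to 64.36 Mreads (megareads), and the next deepest had 41.31 Mreads. Libraries separated by day: the first principal component (42.07% of the variance of the 2000 most variable genes) set days 5 and 7 apart from days 13 and 16. The ipsilateral day 16 library 5-137 stood apart at -6.91 on that component, where the other 4 of its group lay between -56.83 and -50.26. Since both horns come from the same heifers, one horn is not an independent repeat of the other. The tissue label was met by its markers, with EPCAM at a median of 361 CPM, the count scaled to the size of the library, and the stromal gene DCN at 3103 CPM over the 40 libraries. Of 8 markers of steroid-making cells, CYP19A1 had no read in any of the 40 libraries, LHCGR had a median of 0, and CYP11A1, CYP17A1 and HSD3B1 stayed at or below 0.772 CPM, while STAR ran from 3.03 to 8.39 CPM, INHA from 0.479 to 1.82 CPM and NR5A1 from 0.0607 to 2.60 CPM. Of 8 fat cell markers, ADIPOQ and LEP had medians of 0 and CIDEC a highest level of 0.178 CPM, while LIPE (5.88 to 14.5 CPM), PLIN1 (5.12 to 9.89), PLIN4 (0.285 to 19.4), CIDEA (0.770 to 2.93) and PPARG (0.519 to 2.83) had reads in all libraries.

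Most of the cholesterol genes moved over the 4 days. In the edgeR quasi-likelihood test with Benjamini-Hochberg adjustment over all genes and a threshold of 0.05, 20 of the 30 genes changed with day in the ipsilateral horn and 20 in the contralateral horn. The share of all tested genes that changed was 54.9% of 19733 in the ipsilateral and 55.3% of 19559 in the contralateral horn, so the share among the 30 (66.7% in each) was near the background. The call was made in both horns for 18 genes, in 1 horn for 4 (MSMO1 and HSD17B7 in the ipsilateral, SCAP and ABCG1 in the contralateral) and in neither for 8. The 8 were the kinase PMVK, the farnesyl diphosphate and squalene synthases FDPS and FDFT1, the sterol enzymes EBP and DHCR7, SREBF2, STARD4 and NPC2.

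The genes followed several time courses. HMGCS1, the synthase of HMG-CoA, SQLE, the monooxygenase that opens the sterol branch, CYP51A1, IDI1 and INSIG1 were lowest on day 7 and highest on day 16 in both horns by group mean. ACAT2, MVD, LSS and SCARB1 had their highest mean on day 5 and their lowest on day 13 in both horns. TM7SF2, NSDHL, SREBF1, ABCG1 and NPC2 had their highest mean on day 7 in both horns, though NPC2 passed no test between days. NPC1, MSMO1 and HSD17B7 had their lowest mean on day 5 and their highest on day 16 in both horns. ABCG1, MSMO1 and HSD17B7 passed no step between successive days in either horn. Over the 4 days ABCG1 passed only in the contralateral horn, and MSMO1 and HSD17B7 only in the ipsilateral. The contralateral HSD17B7 means ran only from 78.01 to 83.45 CPM. By group mean, day 16 was the highest day for 15 of the 30 genes in the ipsilateral and 12 in the contralateral horn, and day 5 for 5 and 9.

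**Figure D1:**
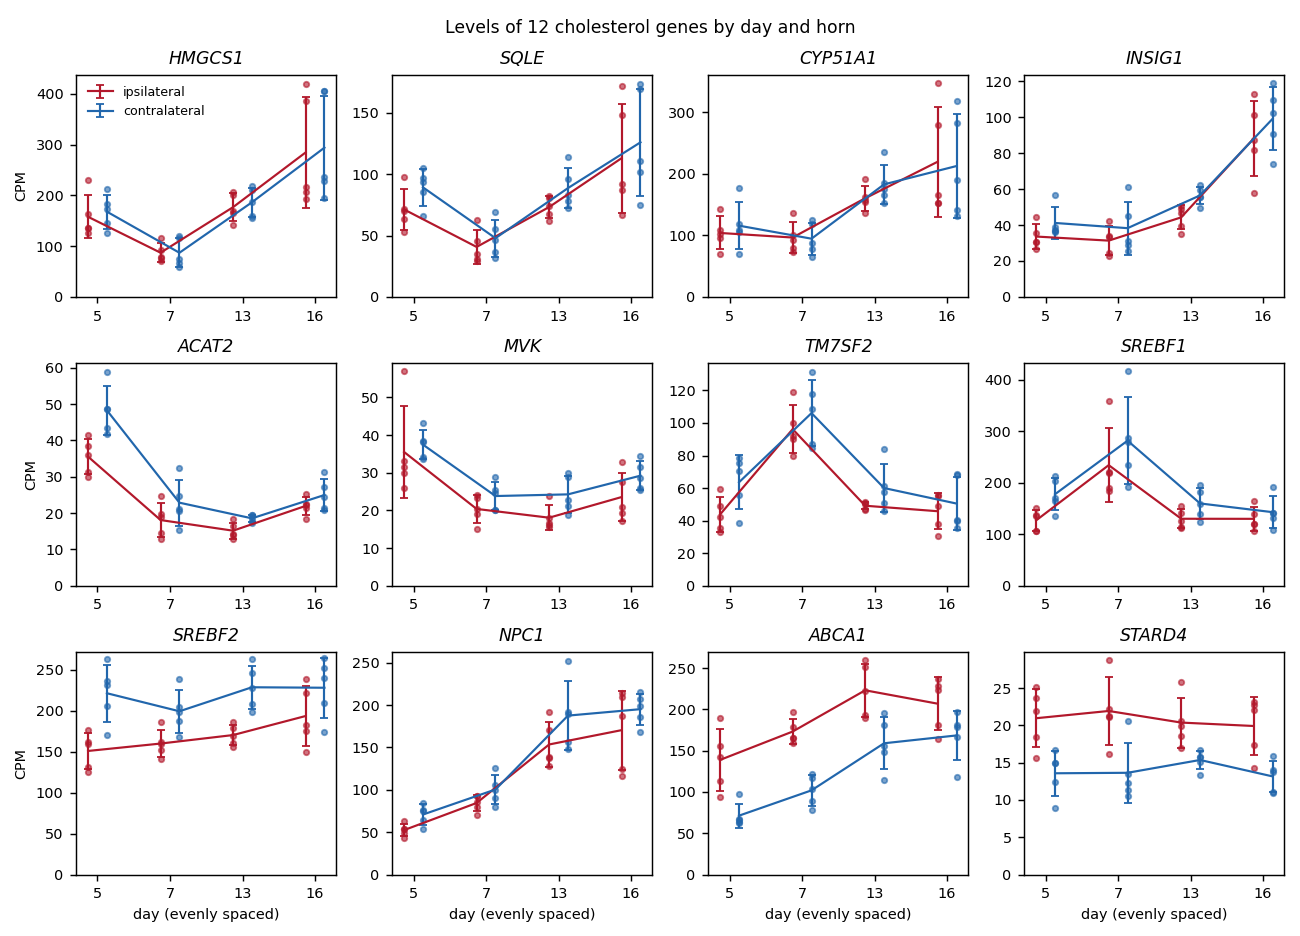
Level in CPM (vertical axis, from 0) of 12 cholesterol genes on the 4 days, which are evenly spaced on the horizontal axis; each point is a library, lines join the means of 5 libraries and bars are the SD, in red for the ipsilateral and blue for the contralateral horn. HMGCS1 dipped on day 7 (means of 87.1 and 87.0 CPM), TM7SF2 and SREBF1 peaked there, and the ABCA1 and STARD4 means lay higher in the ipsilateral horn on each day.

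From day 5 to day 7 the early enzymes ACAT2, HMGCS1 and MVK and the sterol enzyme SQLE fell, while the sterol reductase TM7SF2, SREBF1 and NPC1 rose. Of the 30 genes, 8 changed in the ipsilateral horn (4 higher and 4 lower) and 9 in the contralateral horn (4 higher and 5 lower), and 7 of them changed in both. Of all genes tested, 28.8% changed in the ipsilateral horn (15% higher and 13.7% lower) and 20.4% in the contralateral horn (10.8% higher and 9.58% lower). These 7 changed the same way in each horn. The median log2 fold change of the 30 genes was 0.016 in the ipsilateral and -0.084 in the contralateral horn, beside -0.016 and 0.004 over all genes tested. Among the 7 early enzymes the median was -0.229 and -0.481, with 3 of 7 lower and none higher in either horn. Of the 4 genes of export, uptake and receptor turnover, the contralateral horn gave 1 higher, ABCA1 (log2 fold change 0.52 ± 0.17 SE), and 1 lower, SCARB1 (-0.40 ± 0.12). The ABCA1 call was lost without the day 5 libraries 3-175, 4-184, 7-300 or 8-1350 or the day 7 libraries 2-1337 or 2-371 (adjusted p from 0.0565 to 0.0844). The SCARB1 call was lost without library 7-300 of day 5 (0.0927) or 6-338 of day 7 (0.0548).

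ACAT2, the cytosolic thiolase that joins acetyl-CoA units at the start of the pathway, stood at 30.03, 31.4, 36.1, 38.6 and 41.6 CPM in the ipsilateral libraries of day 5 and at 12.8, 14.5, 18.8, 19.7 and 24.7 CPM in those of day 7. In the contralateral horn the libraries stood at 41.9, 43.4, 48.6, 48.6 and 58.9 CPM on day 5 and at 15.4, 20.7, 21.1, 24.6 and 32.5 CPM on day 7. Every day 7 library lay below every day 5 library of its horn. The level fell 1.97-fold in the ipsilateral horn (log2 fold change -0.98 ± 0.16 SE, adjusted p = 0.000225) and 2.10-fold in the contralateral horn (-1.07 ± 0.16, adjusted p = 0.000155). ACAT2 overlaps the chaperonin gene TCP1 in the RefSeq gene table, and the sources used here do not say whether reads were counted by strand.

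HMGCS1 fell on day 7 and rose again on day 13. In the ipsilateral horn its libraries held 126, 135, 136, 163 and 229.5 CPM on day 5 and 69.8, 77.4, 78.8, 92.9 and 116 CPM on day 7. In the contralateral horn they held 127, 145, 173, 183 and 212 CPM on day 5 and 58.8, 66.4, 73.9, 116 and 119.6 CPM on day 7. No library of day 7 reached the lowest library of day 5 in either horn. The fall was 1.82-fold (-0.86 ± 0.22, adjusted p = 0.00827) in the ipsilateral and 1.92-fold (-0.94 ± 0.23, adjusted p = 0.00689) in the contralateral horn. MVK, the mevalonate kinase, fell too, with log2 fold changes of -0.80 ± 0.21 (adjusted p = 0.00884) and -0.65 ± 0.14 (adjusted p = 0.00268). The other early enzymes MVD, IDI1, FDPS and PMVK did not pass the test in this step, with values from -0.48 (FDPS, contralateral) to 0.004 (PMVK, ipsilateral).

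SQLE held 53.2, 63.7, 70.2, 71.4 and 98.1 CPM on day 5 and 29.4, 31.1, 35.3, 45.2 and 62.7 CPM on day 7 in the ipsilateral horn. The contralateral libraries held 65.6, 85.8, 93.5, 96.9 and 105 CPM and 31.97, 36.5, 46.3, 55.2 and 69.5 CPM on these days. The groups overlapped in both horns, since the highest day 7 library lay above the lowest day 5 library. SQLE fell 1.75-fold (-0.81 ± 0.24, adjusted p = 0.0188) in the ipsilateral and 1.86-fold (-0.89 ± 0.23, adjusted p = 0.00935) in the contralateral horn. The ipsilateral call was lost without the day 5 library 4-184 (adjusted p = 0.0558) or without the day 7 libraries 4-064 (0.0501) or 6-338 (0.0573).

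TM7SF2, one of the sterol C14 reductases, moved the other way. Its ipsilateral libraries held 33.01, 35.3, 42.5, 49.1 and 59.3 CPM on day 5 and 79.5, 90.1, 91.99, 100.2 and 119 CPM on day 7. The contralateral libraries held 38.3, 55.6, 70.2, 75.3 and 78.5 CPM on day 5 and 84.7, 87.4, 109, 118 and 132 CPM on day 7. All 5 day 7 libraries lay above all 5 day 5 libraries in each horn. The rise was 2.19-fold (1.13 ± 0.17, adjusted p = 0.000127) in the ipsilateral and 1.67-fold (0.74 ± 0.22, adjusted p = 0.0236) in the contralateral horn. The contralateral call was lost without the day 5 libraries 1-315 (adjusted p = 0.0679) or 7-300 (0.0526) or the day 7 libraries 4-064 (0.0568) or 5-117 (0.0635). NSDHL, a sterol dehydrogenase, rose in the ipsilateral horn (0.61 ± 0.17, adjusted p = 0.0111), and its contralateral value was 0.37 ± 0.17 (adjusted p = 0.149).

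SREBF1 encodes SREBP-1, which acts mostly on fatty acid genes. Ipsilateral libraries held 106, 106, 135, 137 and 151 CPM on day 5 and 183, 189.6, 218, 221 and 359 CPM on day 7, with no overlap. Contralateral libraries held 135, 166, 171, 203 and 214 CPM and 192, 234, 279.9, 286 and 416 CPM, with the lowest day 7 library inside the day 5 range. The rise was 1.84-fold (0.88 ± 0.17, adjusted p = 0.00113) in the ipsilateral and 1.59-fold (0.67 ± 0.19, adjusted p = 0.0177) in the contralateral horn. The contralateral call was lost without library 1-315 of day 5 (adjusted p = 0.0565) or 5-117 of day 7 (0.0614), the latter being the highest. SREBF1 shares its locus with RAI1 and MIR33B in the RefSeq gene table. The other regulators SREBF2, INSIG1, INSIG2 and SCAP did not pass in this step, with values between -0.16 and 0.08 in the 2 horns.

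Markers of other cell types moved with this step. Of the 8 smooth muscle markers 6 fell in the ipsilateral and 3 in the contralateral horn, and their summed level ran from 772.5 to 5724 CPM on day 5 and from 293.9 to 649.9 CPM on day 7 in the ipsilateral horn, and from 711.4 to 1424 and 391.2 to 772.3 CPM in the contralateral horn. Of the 8 stromal markers 5 and 3 fell, with summed levels of 12410 to 18000 CPM on day 5 and 6825 to 13050 CPM on day 7 in the ipsilateral and 15430 to 26350 and 9597 to 17500 CPM in the contralateral horn. Of the 8 epithelial markers 4 rose and 1 fell in the ipsilateral and 2 rose and 1 fell in the contralateral horn, with summed levels of 647.1 to 959 CPM on day 5 and 849 to 1130 CPM on day 7 in the ipsilateral and 951 to 1361 and 882 to 1348 CPM in the contralateral horn. In each horn 1 of 7 macrophage markers fell, and 1 of 5 fat cell markers fell in the contralateral horn. The mitochondrial share of reads ran from 0.0812% to 0.165% on day 5 and 0.124% to 0.399% on day 7 in the ipsilateral horn, and from 0.0817% to 0.154% and 0.112% to 0.329% in the contralateral horn. The part of these shifts in the changes of the cholesterol genes was not tested.

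From day 7 to day 13 a set of synthesis genes rose with NPC1 and both INSIG genes, while other sterol enzymes and SREBF1 fell. Of the 30 genes 14 changed in each horn, 8 higher and 6 lower in the ipsilateral and 9 higher and 5 lower in the contralateral horn. Of all genes tested, 28.6% changed in the ipsilateral (14.6% higher and 14% lower) and 33.5% in the contralateral horn (16% higher and 17.5% lower). In both horns 8 genes rose (HMGCS1, IDI1, SQLE, CYP51A1, SC5D, INSIG1, INSIG2 and NPC1) and 5 fell (LSS, TM7SF2, NSDHL, SREBF1 and SCARB1). MVD, the mevalonate diphosphate decarboxylase, fell in the ipsilateral horn (-0.58 ± 0.17, adjusted p = 0.015; contralateral -0.50 ± 0.21, adjusted p = 0.0687), and ABCA1 rose in the contralateral horn (0.64 ± 0.16, adjusted p = 0.00521; ipsilateral 0.38 ± 0.15, adjusted p = 0.0724). The median of the 30 genes was 0.001 and 0.021, beside 0.027 and 0.005 over all genes. This step shares the day 7 libraries with the step before it, so a gene high or low on day 7 enters both.

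HMGCS1 rose to 141, 164, 170.0, 201 and 207 CPM in the ipsilateral and 156, 160.1, 186, 210.3 and 218 CPM in the contralateral libraries of day 13. All of these lay above the day 7 libraries of their horn. The rise was 2.05-fold (1.04 ± 0.23, adjusted p = 0.00179) and 2.14-fold (1.10 ± 0.23, adjusted p = 0.00105). SQLE reached 61.6, 67.7, 74.4, 80.5 and 82.2 CPM and 72.1, 78.02, 83.5, 96.1 and 114 CPM, with log2 fold changes of 0.86 ± 0.24 (adjusted p = 0.0119) and 0.89 ± 0.23 (adjusted p = 0.00525). Its ipsilateral day 13 libraries overlapped those of day 7 only at library 5-117, and the contralateral groups did not overlap. CYP51A1, the lanosterol demethylase, rose by 0.75 ± 0.23 (adjusted p = 0.0216) and 0.95 ± 0.26 (adjusted p = 0.00772), with the ipsilateral call lost without the day 13 library 6-203 (0.0644) or the day 7 libraries 2-1337 (0.0621), 4-064 (0.0516) or 6-338 (0.0684). IDI1, the isomerase of isoprenoid units, rose by 0.60 ± 0.21 (adjusted p = 0.037) and 0.72 ± 0.24 (adjusted p = 0.0236). The IDI1 call was lost in 11 of the 20 ipsilateral fits without 1 library (adjusted p up to 0.115, without day 13 library 4-1314) and in 4 of the 20 contralateral ones (without 4-1314 of day 13 or 2-1337, 4-064 or 5-117 of day 7, adjusted p up to 0.0665). The ipsilateral IDI1 call was also lost with no filter on low counts (0.0573) and with all 40 libraries in one fit (0.0525). SC5D, a sterol desaturase, rose by 0.54 ± 0.11 (adjusted p = 0.000825) and 0.60 ± 0.11 (adjusted p = 0.000247), and in both horns all day 13 libraries lay above those of day 7.

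NPC1, the membrane protein that passes sterol out of late endosomes, rose in both early steps. Ipsilateral libraries held 42.8, 48.5, 54.05, 54.2 and 62.9 CPM on day 5, 70.4, 79.97, 85.7, 93.1 and 93.2 CPM on day 7 and 128, 137, 139, 171 and 192 CPM on day 13. Contralateral libraries held 53.2, 64.6, 75.4, 75.99 and 84.9 CPM, 80.1, 90.2, 100.3, 105 and 126 CPM and 148, 156, 189, 192 and 252 CPM on these days. The ipsilateral groups did not overlap at either step, and the contralateral groups overlapped only between days 5 and 7. From day 7 to 13 the rise was 1.84-fold (0.88 ± 0.17, adjusted p = 0.000583) and 1.87-fold (0.90 ± 0.15, adjusted p = 9.88e-05), after rises of 0.68 ± 0.17 (adjusted p = 0.00552) and 0.51 ± 0.15 (adjusted p = 0.0191) from day 5 to 7. The contralateral call of that first rise was lost without day 5 library 1-315 (0.061) or day 7 library 4-064 (0.0682). NPC1 overlaps RMC1 in the RefSeq gene table. NPC2, its soluble partner, had group means from 125.5 to 161.1 CPM and passed no test between days.

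TM7SF2 and SREBF1 returned from their day 7 level. TM7SF2 held 46.7, 47.1, 50.1, 50.7 and 51.2 CPM in the ipsilateral and 46.2, 50.8, 57.7, 61.5 and 83.9 CPM in the contralateral libraries of day 13, all below the day 7 libraries of their horn. It fell 1.94-fold (-0.95 ± 0.17, adjusted p = 0.00031) and 1.77-fold (-0.82 ± 0.22, adjusted p = 0.00767). SREBF1 held 113, 114, 126, 142 and 156 CPM and 124, 139.6, 158, 182 and 195 CPM on day 13, below all day 7 libraries in the ipsilateral horn and overlapping by 1 library on each side in the contralateral. It fell 1.78-fold (-0.83 ± 0.17, adjusted p = 0.00113) and 1.76-fold (-0.82 ± 0.19, adjusted p = 0.00262). LSS, which closes the sterol ring, fell by 0.63 ± 0.17 (adjusted p = 0.00816) and by 0.56 ± 0.16 (adjusted p = 0.0106), and SCARB1 fell by 0.52 ± 0.15 (adjusted p = 0.0121) and by 0.57 ± 0.12 (adjusted p = 0.00119), without overlap of the groups in either horn. NSDHL fell by 0.48 ± 0.17 (adjusted p = 0.0342) and by 0.48 ± 0.18 (adjusted p = 0.0412). That call was lost in 4 of 20 ipsilateral fits without 1 library (day 13 libraries 4-1314, 5-140 and 8-275 and day 7 library 4-064, adjusted p from 0.0586 to 0.0693) and in 6 of 20 contralateral ones (4-1314, 6-203 and 8-275 of day 13 and 2-371, 4-064 and 5-117 of day 7, from 0.0568 to 0.117).

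INSIG2 rose by 0.40 ± 0.08 (adjusted p = 0.00109) in the ipsilateral and 0.61 ± 0.10 (adjusted p = 5.97e-05) in the contralateral horn. INSIG1, itself a target of SREBP, rose by 0.51 ± 0.19 (adjusted p = 0.0479) and 0.56 ± 0.20 (adjusted p = 0.0347) in this step. The INSIG1 call rested on the full set of libraries: it was lost in 15 of the 20 ipsilateral fits without 1 library (adjusted p up to 0.148, without day 7 library 6-338) and in 7 of the 20 contralateral ones (up to 0.0983, without day 7 library 2-1337). In the ipsilateral horn it was also lost with RLE scaling (0.0615), with no filter on low counts (0.0768) and with all 40 libraries in one fit (0.0562). Beside these changes, 2 of 8 endothelial markers rose in the ipsilateral and 3 of 8 in the contralateral horn, and 2 of 8 epithelial markers rose and 1 fell in each. Of the 8 stromal markers 1 rose and 1 fell in the ipsilateral and 1 rose and 2 fell in the contralateral horn. Of 4 steroidogenic markers tested 1 rose in each horn, and 1 of 7 macrophage and 1 of 5 fat cell markers fell in the contralateral horn. The mitochondrial share ran from 0.448% to 0.526% on day 13 in the ipsilateral horn, above all day 7 libraries, and from 0.263% to 0.578% in the contralateral horn, overlapping day 7. The share of reads on microRNA and tRNA genes ran from 0.0133% to 0.0146% on day 7 and from 0.0148% to 0.0183% on day 13 in the ipsilateral horn, and from 0.00945% to 0.0119% and 0.0125% to 0.0147% in the contralateral horn. Their part in the day changes was not tested.

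**Figure D2:**
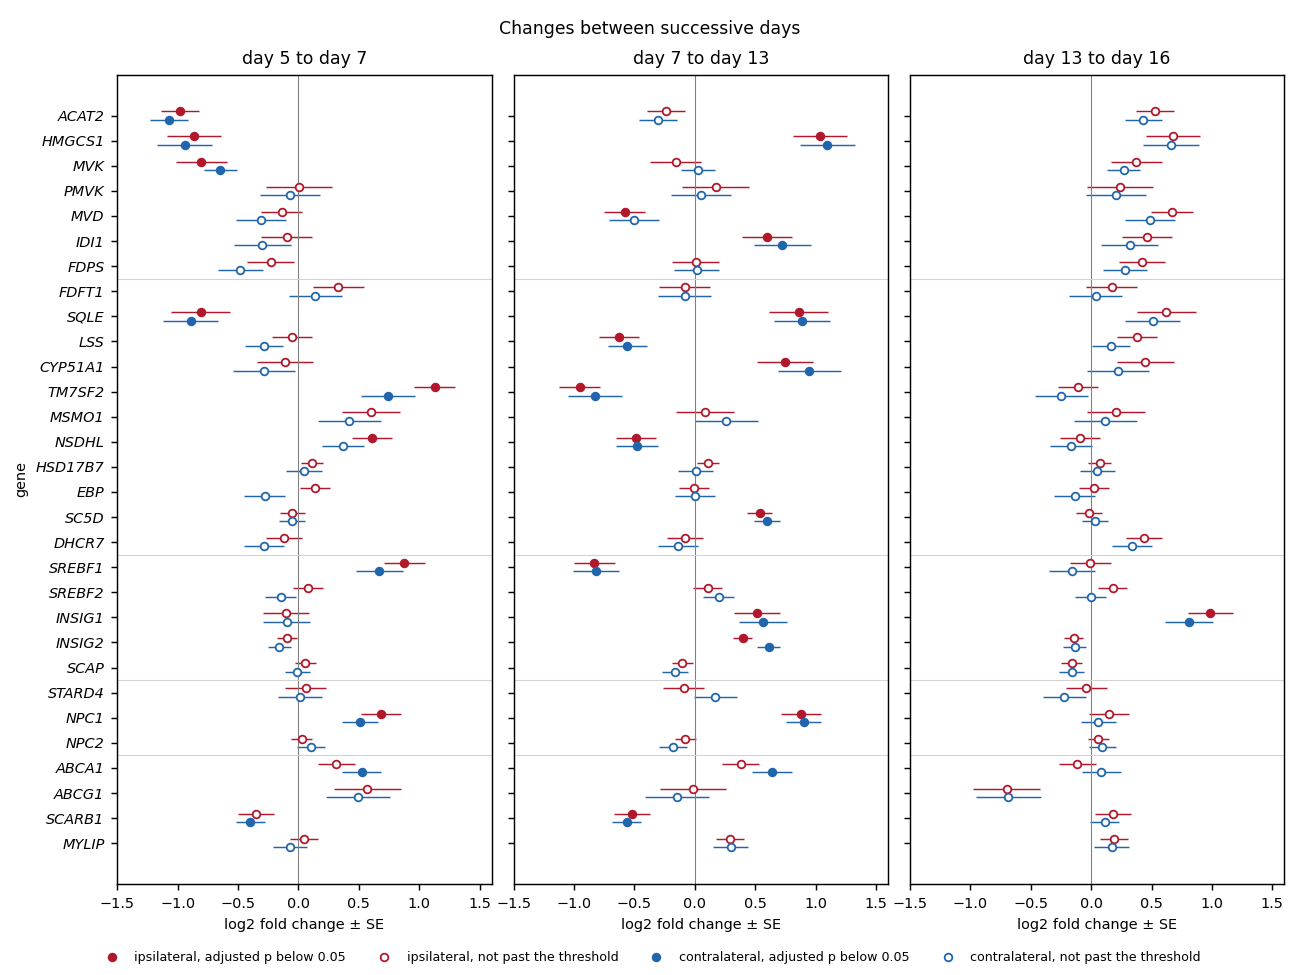
Log2 fold change with its SE (horizontal axis) of each of the 30 genes (rows, grouped by role) for the steps from day 5 to 7, 7 to 13 and 13 to 16, in red for the ipsilateral and blue for the contralateral horn; filled points had an adjusted p below 0.05. ACAT2, HMGCS1, MVK and SQLE lie left of 0 in the first panel in both horns, HMGCS1 and SQLE right of 0 in the second, and INSIG1 alone is filled in the third.

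From day 13 to day 16 a single cholesterol gene, INSIG1, passed the test, and it rose in both horns. This was 1 of 30 genes in each horn. Of all genes tested, 0.446% changed in the ipsilateral horn (0.193% higher and 0.253% lower) and 1.68% in the contralateral horn (0.608% higher and 1.07% lower). INSIG1 stood at 35.1, 39.4, 46.9, 49.2 and 50.8 CPM on day 13 and 57.7, 81.6, 87.1, 101 and 113 CPM on day 16 in the ipsilateral horn. In the contralateral horn the libraries stood at 49.5, 55.7, 55.7, 59.4 and 62.1 CPM and 73.9, 90.7, 102, 109.8 and 119 CPM. All day 16 libraries lay above all day 13 libraries of their horn. The rise was 1.98-fold (0.99 ± 0.19, adjusted p = 0.0239) and 1.76-fold (0.81 ± 0.20, adjusted p = 0.0411). On days 5 and 7 the level had run from 22.6 to 44.5 CPM in the ipsilateral and from 25.4 to 60.9 CPM in the contralateral libraries.

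The INSIG1 rise of this last step kept its direction without any 1 library but not always its call. In the ipsilateral horn the call was lost without the day 16 libraries 2-068 (adjusted p = 0.0642), 3-155 (0.0767) or 8-245 (0.0628) or the day 13 libraries 4-1314 (0.0612), 5-140 (0.0511) or 8-275 (0.0676). Without library 5-137, which stood apart, INSIG1 rose by 1.11 ± 0.18 (adjusted p = 0.0071), and MVD also passed (0.77 ± 0.17, adjusted p = 0.0361). In the contralateral horn INSIG1 was lost in 13 of the 20 fits without 1 library (adjusted p from 0.0511 to 0.103), among them all 5 that left out a day 13 library and those without 2-068, 3-155, 5-137 or 8-245 of day 16, 3-175, 4-184 or 7-300 of day 5 or 2-371 of day 7. With no filter on low counts the contralateral adjusted p was 0.0503.

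The 18 synthesis genes mostly had higher means on day 16 than on day 13 without passing the test. All 7 early enzymes had positive log2 fold changes in both horns, from 0.24 (PMVK) to 0.68 (HMGCS1) in the ipsilateral (median 0.464, beside -0.004 over all genes) and from 0.21 (PMVK) to 0.66 (HMGCS1) in the contralateral horn (median 0.318, beside 0.006). The 11 sterol enzymes had medians of 0.17 and 0.052. At an unadjusted p below 0.05, 10 of the 30 genes in the ipsilateral and 6 in the contralateral horn would pass, as would 2213 of 19733 and 2556 of 19559 of all genes tested. ACAT2 did not overlap between the days in either horn, with adjusted p of 0.163 and 0.197.

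The spread among day 16 libraries was wide for HMGCS1, SQLE and CYP51A1, none of which passed the test in this step. HMGCS1 held 194, 206, 217, 385 and 419.7 CPM in the ipsilateral libraries, where 2-068 and 3-155 were far above the rest. In the contralateral horn HMGCS1 held 194, 228, 237, 405 and 405 CPM, where 3-155 and 5-137 were the high ones. SQLE split the same way, at 66.6, 87.3, 92.2, 148 and 172 CPM in the ipsilateral and 74.7, 102, 111, 169 and 174 CPM in the contralateral libraries. CYP51A1 held 152, 153, 166, 280.0 and 347 CPM and 131, 141, 189.9, 282 and 318 CPM, with the same libraries on top. Over all genes tested, deviations of ipsilateral 2-068 and 3-155 from the group mean correlated best with contralateral 3-155 (r = 0.434) and 5-137 (0.515). The differing tags thus do not show that the high libraries of the horns came from different heifers, and this was not tested. On day 13 the HMGCS1 libraries had stayed between 141 and 218 CPM over both horns. ABCG1 had the largest negative value of this step in both horns, -0.70 ± 0.28 and -0.68 ± 0.27, with adjusted p of 0.336 and 0.243. The summed epithelial markers ran from 934.8 to 1410 CPM on day 13 and 932.2 to 1479 CPM on day 16 in the ipsilateral horn. The mitochondrial share fell below all day 13 libraries, to 0.179% to 0.224% on day 16 in the ipsilateral and 0.154% to 0.200% in the contralateral horn, and its part in this step was not tested.

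Other genes of the sterol pathway, from 5 lists outside the 30 genes, changed in the same steps. Of 66 listed genes 64 were in the table and 60 were tested. From day 5 to 7, 16 of 60 rose and 7 fell in the ipsilateral and 11 rose and 3 fell in the contralateral horn. From day 7 to 13, 12 rose and 16 fell in the ipsilateral and 10 rose and 17 fell in the contralateral horn. Of all genes tested, 15% rose and 13.7% fell (ipsilateral) and 10.8% rose and 9.58% fell (contralateral) from day 5 to 7, and 14.6% and 14% (ipsilateral) and 16% and 17.5% (contralateral) from day 7 to 13. None of the 60 passed from day 13 to 16 in edgeR in either horn, where 8 and 7 would pass at an unadjusted p below 0.05 and DESeq2 called 1 and 1 (SCD in the ipsilateral and PAQR3 in the contralateral horn, named after its values were seen). The lists of receptors and transport (7 of 17 rose from day 5 to 7 in the ipsilateral and 5 in the contralateral horn, none fell) and of SREBP processing and sterol sensing (4 and 3 of 9 rose, none fell) held most of the early rises. The oxysterol and export list gave 2 of 12 and 1 of 12 rises, and the isoprenoid and sterol enzyme list gave 1 of 10 higher and 3 lower in the ipsilateral and 1 higher in the contralateral horn. Of the 12 fatty acid synthesis genes that SREBP-1 acts on, 2 rose and 4 fell in the ipsilateral horn from day 5 to 7. In the contralateral horn 1 rose and 3 fell, while SREBF1 itself rose in both horns. From day 7 to 13, where SREBF1 fell, 3 of the 12 rose and 5 fell in each horn. Their median log2 fold change in that step was -0.433 in the ipsilateral and -0.434 in the contralateral horn.

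Of the 11 list genes that rose from day 5 to 7 in both horns, LRP2 and LRP8 had the largest changes. LRP2, the endocytic receptor megalin, rose by 1.41 ± 0.46 (log2, adjusted p = 0.0274) in the ipsilateral and 1.36 ± 0.36 (adjusted p = 0.0125) in the contralateral horn. LRP8, a lipoprotein and reelin receptor, had a mean of 20.3 CPM on day 5, 52.3 CPM on day 7 and 11.2 CPM on day 13 in the ipsilateral horn, and 17.2, 40.5 and 9.32 CPM in the contralateral horn. LRP8 rose by 1.36 ± 0.30 and 1.24 ± 0.19 (adjusted p = 0.00286 and 0.000257) and then fell (-2.20 ± 0.31 and -2.12 ± 0.20, adjusted p = 3.64e-05 and 2.02e-07). VLDLR, the receptor of very low-density lipoprotein, rose from day 7 to 13 by 0.94 ± 0.25 and 1.41 ± 0.26 (adjusted p = 0.00729 and 0.000338). SULT2B1, a sterol sulfotransferase, fell in that step (-2.31 ± 0.32 and -2.28 ± 0.34, adjusted p = 3.16e-05 and 3.26e-05), from means of 5.55 and 5.85 CPM to 1.10 and 1.21 CPM. The desaturase gene FADS2 fell from day 5 to 7 (-0.66 ± 0.23 and -0.77 ± 0.18) and rose from day 7 to 13 (1.40 ± 0.23 and 1.29 ± 0.19), the course of HMGCS1 and SQLE by direction. FADS1 fell from day 5 to 7 (-0.57 ± 0.21 and -0.76 ± 0.20).

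Between the horns, 16 of the 30 cholesterol genes were lower on the side of the corpus luteum, and the exporter ABCA1 and the carrier STARD4 were higher. Averaged over the 4 days, 20 of the 30 genes differed, 4 higher and 16 lower in the ipsilateral horn, while 38.2% of all 20356 genes tested differed, 19.6% higher and 18.6% lower. The median log2 difference of the 30 genes was -0.231 (ipsilateral minus contralateral), beside -0.010 over all genes. Lower were 3 of the 7 early enzymes (ACAT2, MVK and MVD), 6 of the 11 sterol enzymes (FDFT1, LSS, TM7SF2, NSDHL, EBP and DHCR7), 4 of the 5 regulators (SREBF1, SREBF2, INSIG1 and SCAP), NPC1, NPC2 and SCARB1. Higher were SC5D, INSIG2, STARD4 and ABCA1. The differences ran from -0.45 (DHCR7) to 0.63 (ABCA1). CYP51A1 (-0.07 ± 0.13), HMGCS1 (-0.05 ± 0.12) and HSD17B7 (-0.05 ± 0.06) lay near 0, as did IDI1, and were not called.

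ABCA1, which loads cholesterol onto apolipoproteins at the cell surface, had the largest difference. On day 5 its libraries held 93.4, 113, 142, 156 and 190.0 CPM in the ipsilateral and 62.2, 64.2, 65.5, 67.7 and 97.1 CPM in the contralateral horn. On day 7 they held 159.8, 165, 166, 179 and 197 CPM and 77.98, 89.5, 104, 117 and 122 CPM. On day 7 all ipsilateral libraries lay above all contralateral ones, and on day 5 only the lowest ipsilateral library fell below the highest contralateral one, 1-315. The difference was 1.95-fold on day 5 (0.96 ± 0.17, adjusted p = 6.58e-05) and 1.70-fold on day 7 (0.76 ± 0.17, adjusted p = 0.00166). It was 0.49 ± 0.16 on day 13 (adjusted p = 0.0742; means 223 ± 32.1 and 159 ± 31.4 CPM, SD, n = 5) and 0.30 ± 0.16 on day 16 (adjusted p = 0.398; means 207 ± 32.2 and 168 ± 29.9 CPM). Averaged over days it was 1.54-fold (0.63 ± 0.08, adjusted p = 1.46e-07). ABCG1, the other exporter, was not called, at -0.18 ± 0.14 (adjusted p = 0.334).

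STARD4, a soluble carrier that brings sterol to the endoplasmic reticulum, was higher in the ipsilateral horn on days 5, 7 and 16. The ipsilateral libraries held 15.7, 18.4, 21.96, 23.6 and 25.1 CPM on day 5 and the contralateral ones 8.87, 12.5, 14.9, 14.9 and 16.6 CPM. On day 7 they held 16.2, 21.1, 21.3, 22.2 and 28.8 CPM and 10.5, 11.3, 12.2, 13.5 and 20.6 CPM, and on day 16 14.2, 17.3, 22.1, 22.8 and 23.2 CPM and 10.9, 11.1, 13.7, 14.1 and 15.9 CPM. The groups overlapped on these 3 days and did not on day 13. The differences were 0.63 ± 0.18 (adjusted p = 0.00919), 0.68 ± 0.18 (adjusted p = 0.00841), 0.41 ± 0.18 (adjusted p = 0.201) and 0.60 ± 0.18 (adjusted p = 0.0443) on days 5, 7, 13 and 16, and 0.58 ± 0.09 on average (1.49-fold, adjusted p = 2.28e-06). The day 7 call of STARD4 was lost with only the 10 libraries of the day (0.0635), and the calls of days 5, 7 and 16 with the share of microRNA and tRNA reads in the fit (0.229, 0.458 and 0.476). The day 16 call was lost without any of 7 libraries of that day (0.164 without the ipsilateral 5-137, which stood apart), with RLE scaling (0.0536), with no filter (0.0749), with only the libraries of the day (0.0659) and with the heifer tag as a block (adjusted p = 0.0588). INSIG2 was higher by 0.26 ± 0.04 on average (adjusted p = 9.73e-06), with no overlap between the horns on days 5 and 7. SC5D was higher by 0.14 ± 0.05 (adjusted p = 0.0435), a call lost in 24 of 40 fits without 1 library and with DESeq2 (0.0782), RLE scaling (0.0826), no filter (0.128), the library total as a covariate (0.0704) or the microRNA and tRNA share (0.545).

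DHCR7, the reductase of the last step of one branch, had the most negative average of the 30, -0.45 ± 0.08 (1.37-fold, adjusted p = 2.02e-05). On day 5 its libraries held 35.2, 40.2, 41.9, 46.03 and 54.03 CPM in the ipsilateral and 50.5, 54.5, 67.96, 78.1 and 85.7 CPM in the contralateral horn, with overlap, and on day 7 34.7, 36.7, 40.9, 41.3 and 47.6 CPM and 48.2, 48.9, 50.5, 58.3 and 69.2 CPM, without overlap. The difference passed on day 5 (-0.63 ± 0.16, adjusted p = 0.00353) and was -0.45 ± 0.16 on day 7 (adjusted p = 0.0595, and 0.0413 with the heifer tag as a block). EBP, the sterol isomerase, held 15.7, 15.9, 16.2, 16.4 and 21.3 CPM and 20.8, 27.9, 31.1, 33.4 and 33.6 CPM on day 5. Only the highest ipsilateral library, 4-184, reached into the contralateral range. EBP was lower, at -0.78 ± 0.15 on day 5 (1.72-fold, adjusted p = 0.000224) and at -0.43 ± 0.07 on average (adjusted p = 1.65e-05).

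SREBF2 held 125, 131, 159.5, 162 and 176 CPM in the ipsilateral and 170.2, 206, 231, 236 and 263 CPM in the contralateral horn on day 5. On day 13 it held 156, 161, 169, 179 and 186 CPM and 198, 208, 228, 246 and 263 CPM. The horns overlapped on day 5 and did not on day 13. The difference was -0.55 ± 0.13 on day 5 (adjusted p = 0.00141), -0.42 ± 0.13 on day 13 (adjusted p = 0.0361) and -0.38 ± 0.06 on average (1.30-fold, adjusted p = 6.46e-06). Without the contralateral day 13 libraries 5-140, 5-167 or 6-203 or the ipsilateral 4-1314, 5-167 or 8-275 the day 13 call was lost (adjusted p from 0.0685 to 0.0805). SCAP was lower, at -0.31 ± 0.05 on average (adjusted p = 2.25e-06). SREBF2 overlaps MIR33A in the RefSeq gene table.

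By day, the horns differed at 11 of the 30 genes on day 5 (3 higher and 8 lower), at 4 on day 7 (3 higher and 1 lower), at 1 on day 13 (SREBF2, lower) and at 1 on day 16 (STARD4, higher). Of all genes tested, 22.7% differed on day 5 (12.3% higher and 10.4% lower), 11.7% on day 7 (7.52% and 4.2%), 5.72% on day 13 (4.52% and 1.2%) and 4.53% on day 16 (3.87% and 0.663%). The day 5 genes were ABCA1, STARD4 and INSIG2 above and EBP, DHCR7, SREBF2, NSDHL, LSS, ACAT2, NPC1 and SCAP below, and the median over the 30 was -0.316, beside -0.033 over all genes. The day 7 genes were ABCA1, STARD4 and INSIG2 above and SCAP below. With the heifer tag as a block TM7SF2 was also lower on day 5 (-0.52 ± 0.17, adjusted p = 0.0384). Most tags did not mark the best-correlated library of the other horn, so that fit cannot be read as a paired comparison of heifers. The day 5 count was 7 without the contralateral library 8-1350 or the ipsilateral library 3-175, the most deeply sequenced. The day 5 calls of ACAT2, LSS, NPC1 and NSDHL were lost in 6, 5, 7 and 4 fits without 1 library (adjusted p up to 0.113, 0.102, 0.147 and 0.0862), and the day 7 call of SCAP in 5 (up to 0.0911). With only the 10 libraries of the day the calls of LSS (0.111) and NPC1 (0.0889) on day 5 and SCAP on day 7 (0.0809) were lost, and NPC1 on day 5 also with the library total as a covariate (0.0532). With the microRNA and tRNA share in the fit the day 5 calls of ACAT2 (0.221), LSS (0.184), NPC1 (0.264), SCAP (0.0787) and SREBF2 (0.0502), the day 7 call of SCAP (0.504) and the day 13 call of SREBF2 (0.487) were lost. The day 13 count was 0 without 4-1314, 5-167 or 8-275 of the ipsilateral or 5-167 or 6-203 of the contralateral horn, and 3 without the contralateral 4-1314. The day 16 count was 2 without the contralateral 3-155 or the ipsilateral 8-245 and 0 without any of 7 other libraries of that day (2-068, 3-155 and 5-137 of the ipsilateral and 2-068, 5-137, 7-107 and 8-245 of the contralateral horn). Whether the horn difference itself changed with day was tested for each gene, and none of the 30, nor any of all 20356 genes (0%), passed in edgeR or in DESeq2. At an unadjusted edgeR p below 0.05, 1 of the 30 genes, ABCA1, and 572 of all genes would pass.

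Cell type markers and an RNA measure differed between the horns too. Averaged over days, 5 of the 8 epithelial markers had lower ipsilateral levels and none higher, and on day 5 their summed level ran from 647.1 to 959 CPM in the ipsilateral and from 951 to 1361 CPM in the contralateral horn. Of the 8 stromal markers 4 were lower, with summed levels of 12410 to 18000 and 15430 to 26350 CPM on day 5, as were 2 of 8 endothelial, 1 of 7 macrophage and 1 of 5 fat cell markers, and no smooth muscle (8) or steroidogenic (4) marker differed. The share of reads on the 801 microRNA and 1595 tRNA genes ran from 0.0115% to 0.0142% in the ipsilateral and from 0.00979% to 0.0111% in the contralateral libraries of day 5, with no overlap on days 5, 7 and 13. With the log2 of that share in the fit, 5 of the 30 genes passed on average (ABCA1 and INSIG2 higher, and NSDHL, EBP and DHCR7 lower). The median difference of the 30 was -0.203 and the median SE rose from 0.088 to 0.148. The share of all genes that passed in that fit is not given here, so the lower count need not be particular to the 30 genes. In that fit 23 of 30 values stayed below 0, beside 26 without it, and MVK changed sign (-0.26 to 0.08). ABCA1 was 0.76 ± 0.15 with the share in the fit, STARD4 0.36 (adjusted p = 0.129) and SREBF2 -0.29 (adjusted p = 0.0806). The part of cell makeup in the horn differences was not tested.

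**Figure D3:**
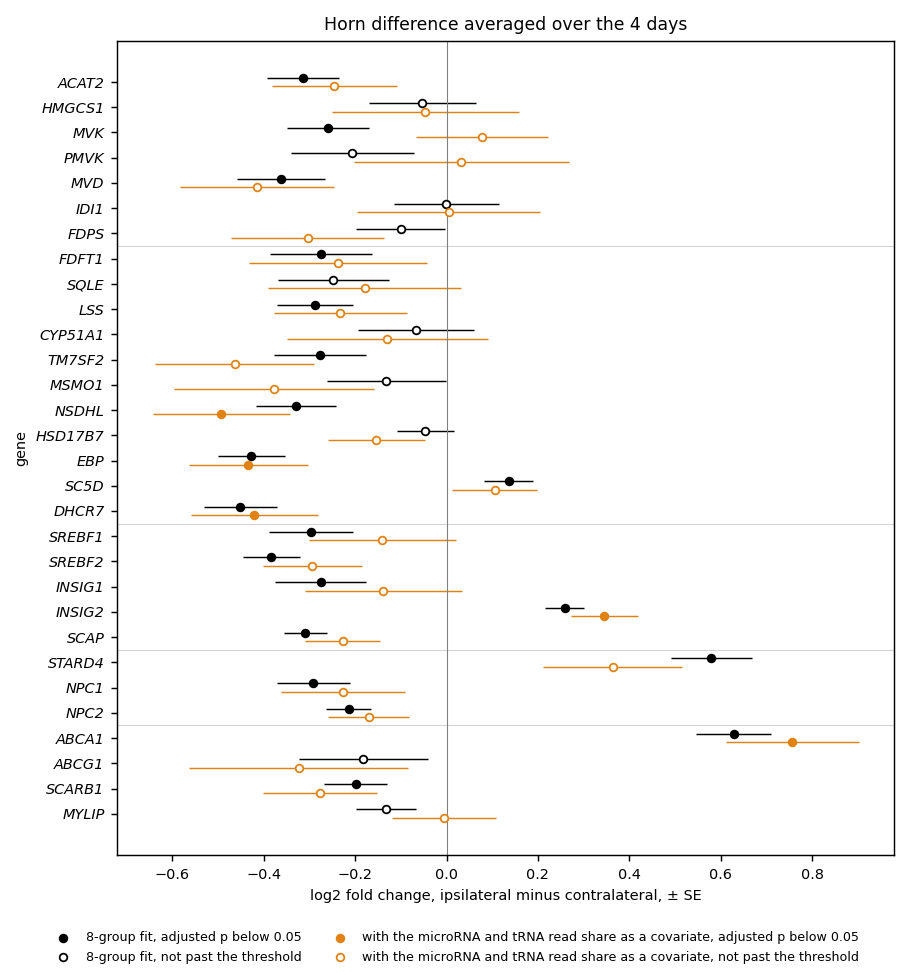
Ipsilateral minus contralateral log2 fold change averaged over the 4 days, with its SE (horizontal axis), for the 30 genes (rows, grouped by role); black points are from the fit of the 8 groups and orange points from the fit with the share of microRNA and tRNA reads added, filled where the adjusted p was below 0.05. Of the black points 16 are filled left of 0 and 4 right of 0, and of the orange points 3 and 2.

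Some horn averages hung on single libraries. FDFT1 (-0.27 ± 0.11, adjusted p = 0.0494) lost its call in 26 of 40 fits without 1 library. TM7SF2 lost it without the contralateral day 16 library 5-137 (adjusted p = 0.0534) and INSIG1 without the contralateral day 7 library 5-117 (0.0581). Without the ipsilateral library 5-137, 19 of the 30 genes differed on average. Of the other tested genes of the pathway lists, 22 of 60 were lower and 9 higher in the ipsilateral horn on average. Of all 20356 genes tested, 18.6% were lower and 19.6% higher.

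Within a day, libraries that were high in one synthesis enzyme tended to be high in the others. Over the 20 libraries of a horn, deviations of log2 CPM from the day mean were correlated between genes, as a description only, since libraries share depth, scaling and cell makeup across genes. The 55 pairs among the 11 sterol enzymes had a median Pearson's r of 0.601 (0.176 to 0.947) in the ipsilateral and 0.755 (0.493 to 0.901) in the contralateral horn. Over all pairs of tested genes the median was -0.001 in each horn, and the spread was not taken. That median therefore does not show how often other groups of genes reach such values. The 77 pairs of early with sterol enzymes had medians of 0.552 and 0.606. SQLE and CYP51A1 gave 0.947 and 0.899, and HMGCS1 and SQLE 0.901 and 0.940. MVK stood outside, with a median r of -0.036 and -0.164 with the other 17 synthesis genes.

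The regulators divided. SREBF2 had a median r of 0.649 (0.134 to 0.852) and 0.703 (0.017 to 0.905) with the 18 synthesis genes, and INSIG1 0.612 and 0.577. SREBF1 had 0.025 and 0.084, INSIG2 0.164 and -0.114, and SCAP -0.209 and -0.452. NPC1 varied with synthesis by median (0.448 and 0.494), with single values from -0.217 to 0.722 and from -0.581 to 0.712. ABCA1 varied against it by median (-0.376 and -0.436), as did SCARB1 (-0.282 and -0.425) and MYLIP, the ubiquitin ligase of lipoprotein receptors (-0.27 and -0.314). Single values took both signs. They ran from -0.62 to 0.423 and from -0.686 to 0.284 for ABCA1. For SCARB1 they ran from -0.445 to 0.072 and from -0.553 to 0.275, and for MYLIP from -0.481 to 0.319 and from -0.56 to 0.607. ABCG1 showed no common sign (-0.081 and 0.087).

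**Figure D4:**
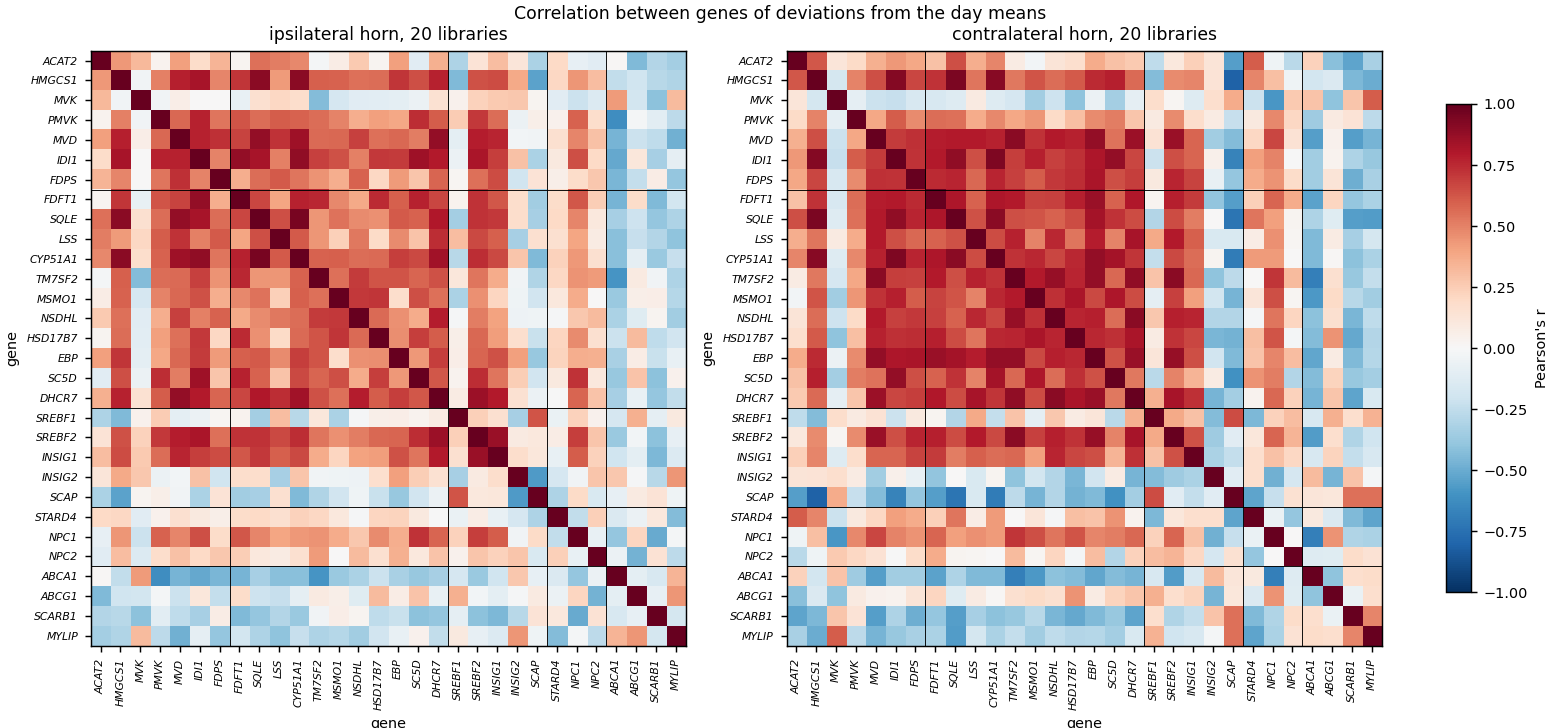
Pearson's r (colour) between the 30 genes (both axes, grouped by role) of deviations from the day means over the 20 libraries of the ipsilateral (left) and contralateral (right) horn. The block of the 11 sterol enzymes is red throughout, with a lowest r of 0.176 and 0.493, and the row of ABCA1 is mostly blue, with medians of -0.376 and -0.436 against the 18 synthesis genes.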

How the data were processed

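Gene expression was measured by RNA-seq in 40 libraries of bovine endometrium, 5 per horn and day. Per the labels' protocols, total RNA was extracted from homogenised tissue and stranded mRNA libraries were made. The deposited values are raw read counts per gene that the authors made. FastQC, HISAT2, featureCounts and the UMD3.1 build are named in the submitters' processing notes, and their versions, and whether counting used strand, are not given in the sources used here. A row without a gene name (1) and 1 mitochondrial row were left out. The 30 genes, the pathway and marker lists and the tests were chosen with earlier results of these data known.

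Counts were analysed in R 4.3.3 with edgeR 4.0.16 (filterByExpr, TMM scaling, quasi-likelihood test, Benjamini-Hochberg adjustment over all genes tested, threshold 0.05). Days were compared in a fit of the 20 libraries of each horn, and horns in a fit of all 40 libraries in 8 groups without a block. The horn fit thus treats the 40 libraries as independent. Its SEs and adjusted p do not take into account that both horns came from the same heifers. Libraries of both horns share animal tags in their names, and the design text takes both horns from each heifer. Deviations of same-tag libraries from their group means nevertheless correlated above 0.1 in only 5 of 20 tags (range -0.258 to 0.669, median -0.046). Each ipsilateral library had a different contralateral library of its day as its best match (r from 0.138 to 0.734). That match bore the same tag in 5 of 20 cases. Low same-tag values thus do not show that the horns of a heifer differ, and whether tags were exchanged between the horns was not tested. Levels are CPM, on TMM-scaled library totals. Alternatives were DESeq2 1.42.0, RLE scaling, no filter, other sample sets, the heifer tag as a block, the log2 library total or the log2 of the microRNA and tRNA read share as covariates in the horn fit, and leaving out each library. The tests were first tested on simulated data. Total counts of 27.03 to 64.36 Mreads (megareads) limit the precision of genes with low counts. Values of each library were given for the 2 highest and 2 lowest changes among members called in both horns at each day step, the 3 lowest and 2 highest horn averages among members called, and INSIG1, SREBF2, SQLE, STARD4 and ABCA1. Of the pathway lists, up to 2 highest and 2 lowest genes called in both horns were named per step. The labels and design text describe the 5 libraries of a group as separate heifers.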

Additional observations from a re-analysis of the deposited data

Results flagged for a closer look

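In 11 of the 240 sets of 5 libraries (30 genes in 8 groups), 1 library lay far from the other 4 by Dixon's test at the 95% level, and chance alone marks about 1 in 20 such sets. MVK was high at 56.9 CPM in the ipsilateral day 5 library 8-1350 (25.9 to 33.2 CPM in the others) and at 23.9 CPM in the ipsilateral day 13 library 6-203 (15.7 to 18.03). MVD reached 37.2 CPM in the contralateral day 13 library 5-140 (18.1 to 23.3). MSMO1, the sterol methyl oxidase, reached 483.6 CPM in the ipsilateral day 7 library 6-338 (235.9 to 292.9). EBP stood at 21.3 CPM in the ipsilateral day 5 library 4-184 (15.7 to 16.4), and SREBF1 at 359.1 CPM in the ipsilateral day 7 library 4-064 (183.2 to 220.9).

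Among the contralateral libraries of day 5, INSIG1 was high at 56.9 CPM in 8-1350 (36.4 to 38.9 in the others), INSIG2 at 29.6 CPM in 7-300 (23.7 to 24.8), ABCA1 at 97.1 CPM in 1-315 (62.2 to 67.7) and SCARB1 at 128.1 CPM in 7-300 (90.5 to 99.8). MYLIP was the 1 gene with a low library, at 78.4 CPM in the ipsilateral day 13 library 5-167 (114.3 to 125.0 in the others).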

How the results depend on the processing

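The number of the 30 genes called moved by more than 1.5 times in these cases, and the cause was not tested. The share of all genes called under these settings is not given here, so a changed count need not be particular to the 30 genes. From day 13 to 16, DESeq2 called 2 in the ipsilateral horn, and no filter on low counts gave 0 in the contralateral horn. Between the horns, the covariate of microRNA and tRNA reads gave 5 on day 5, 2 on day 7, 0 on day 13, 0 on day 16 and 5 on average. On day 13 DESeq2 called 3 and the library total as a covariate gave 2. On day 16 DESeq2 called 2, while RLE scaling, no filter, the 10 libraries of the day alone and the replicate block each gave 0. With the heifer tag as a replicate block the counts were 12, 5, 1 and 0 on days 5, 7, 13 and 16, 20 on average (the same 20 genes) and 0 for the change of the horn difference with day. The block ended the STARD4 call on day 16, added TM7SF2 on day 5 and DHCR7 on day 7, and changed no other call among these. Since most tags did not mark the best-correlated libraries of the horns, these changes cannot be read as those of a paired comparison. MVK changed sign on average with the covariate of microRNA and tRNA reads (0.0768, adjusted p = 0.815).

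Leaving out each library in turn gave 18 to 22 genes over the 4 days in the ipsilateral and 17 to 21 in the contralateral horn, 7 to 9 and 6 to 9 from day 5 to 7, 11 to 15 in each horn from day 7 to 13, and 0 to 2 and 0 to 1 from day 13 to 16. For the horns it gave 7 to 14, 3 to 6, 0 to 3 and 0 to 2 on days 5, 7, 13 and 16, 17 to 20 on average and 0 to 0 for the change with day. The counts from day 13 to 16 and those of the horns on days 13 and 16 rest on 1 gene each. Shares over all genes are not given for these fits either.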
